A study of Mus musculus with 16 samples.

Results

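Mlh3, Msh3, Msh6, Pms2, Mutyh and Ogg1 are 6 genes of DNA mismatch repair and of the repair of oxidised guanine. They were taken by name, as genes with a probe of that name on the array, and not by a threshold on their values. The choice was made with earlier results of these data known. They are 6 of the 24543 genes tested. Together they have 10 probes, and all 10 passed the filter on dim probes (4 or more of the 16 arrays with signal well above background).

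Expression was measured on 1-colour arrays, 1 per mouse, in non-tumour colon of 16 mice at day 28. All 16 mice were ApcMin/+, which means that 1 Apc allele carries a germline mutation that gives rise to intestinal tumours, so no group has intact Apc. Sham mice (4) drank water alone. Control mice (6) drank dextran sulphate sodium (DSS), an agent toxic to the colonic lining, at 1.5% (w/v) over 3 days and were then given saline. 5-ASA mice (6) received the same DSS and 5-aminosalicylic acid (5-ASA), which is prescribed against ulcerative colitis. The labels give 2 accounts of the dosing: into the colorectum for 28 days in the protocol, and in the drinking water after DSS in the sample descriptions. No group received 5-ASA without DSS, and the age and sex of the mice are not given in the sources used here. The samples are pieces of whole tissue, in which fewer cells of a type and less RNA per cell cannot be told apart.

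Mismatch repair removes bases that DNA polymerase has put in wrongly. MutS proteins recognise the mismatch: Msh6 is the subunit that reads single mismatches and Msh3 the one that reads larger insertion and deletion loops. MutL proteins then act on the strand to be removed, and Pms2 and Mlh3 are alternative subunits of 2 such complexes, of which that with Pms2 carries most of the repair. Ogg1 cuts 8-oxoguanine, the commonest oxidised base, out of DNA, and Mutyh removes the adenine that replication places opposite it. Loss of mismatch repair or of MUTYH predisposes to bowel cancer in people, and 5-ASA has been reported to improve replication fidelity in cultured cells. The question addressed here is whether the transcripts of these genes differed between the groups.

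Msh3, Pms2 and Mutyh each have more than 1 probe, and the probes of 2 of these genes did not behave alike, so 5 of their probe sequences are shown: the 2 that cross an exon junction and 3 others for comparison. Positions are those of mm9 in the file headers, and letters run 5′ to 3′. Probe A_51_P454166 of Msh3 (chr13:93115018-93116708, minus strand) and probe A_66_P106275 of Mutyh (chr4:116490399-116490540, plus strand) are 60 bases long but span 1691 and 142 bases of the genome, so these are the junction-crossing ones. The other 3 are Msh3 A_55_P1960587 (chr13:93019783-93019842, minus strand), Pms2 A_55_P2156823 (chr5:144689834-144689893, plus strand) and Mutyh A_55_P1978122 (chr4:116491926-116491985, plus strand), which ends in the stop codon tga of an otherwise open frame.
Msh3 A_51_P454166: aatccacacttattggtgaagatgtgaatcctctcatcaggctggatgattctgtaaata
Msh3 A_55_P1960587: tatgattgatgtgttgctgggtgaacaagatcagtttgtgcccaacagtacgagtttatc
Pms2 A_55_P2156823: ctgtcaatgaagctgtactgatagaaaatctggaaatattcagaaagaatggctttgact
Mutyh A_66_P106275: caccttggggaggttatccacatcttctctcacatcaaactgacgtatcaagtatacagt
Mutyh A_55_P1978122: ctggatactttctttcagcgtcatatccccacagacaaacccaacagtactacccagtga

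The remaining 5 probes are Mlh3 A_51_P342786 (chr12:86576360-86576419, minus strand), Msh6 A_51_P405565 (chr17:88390143-88390202, plus strand), Msh3 A_55_P1974477 (chr13:92981875-92981934, minus strand), Pms2 A_51_P234174 (chr5:144692034-144692093, plus strand) and Ogg1 A_51_P489903 (chr6:113284105-113284164, plus strand). Below, the brightest kept probe on average stands for a gene, namely A_55_P1974477 for Msh3, A_51_P234174 for Pms2 and A_55_P1978122 for Mutyh. Which exon or untranslated region each probe lies in was not analysed here.

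Values are log2 of the background-subtracted intensity minus the 75th percentile of the same array, so 0 is the level of a probe at that percentile, and levels are compared between mice for 1 probe and not between probes. Both slides carried every group in equal number (2 Sham, 3 Control, 3 5-ASA). Row 1 of each slide was used for the Sham mice and for Control 1, 2, 4 and 5. Row 2 was used for the 5-ASA mice and for Control 3 and 6. Sham and 5-ASA thus share no row, so group and row cannot be told apart in any comparison of these 2 groups. In Control minus Sham and in 5-ASA minus Control, group and row coincide in part. Between 59.84% and 65.2% of probes were well above background in row 1 and between 53.04% and 57.74% in row 2. Markers of colon epithelium were all measured (13 of 13) and had median differences of 0.05, -0.0038 and 0.02 for Control minus Sham, 5-ASA minus Control and 5-ASA minus Sham. The number of mice limits the precision, and whether they came from separate cages or litters is not given in the sources used here.

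Msh6, the mismatch-reading MutS subunit, was at 2.05, 2.28, 2.36 and 2.41 in Sham 1 to 4. Control mice ran from 2.25 over a median of 2.36 to 2.55, and 5-ASA mice from 2.24 over a median of 2.26 to 2.78. The means were 2.28 ± 0.16 (SD, n = 4), 2.37 ± 0.11 (n = 6) and 2.35 ± 0.21 (n = 6). The groups overlapped throughout, and the highest value of all 16 mice, in 5-ASA 1, stood apart from the other 5 mice of its group, which lay between 2.24 and 2.35.

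Msh3, the loop-reading MutS subunit, had the narrowest spread of the 6. The probe that represents it was at 1.55, 1.33, 1.71 and 1.55 in Sham 1 to 4, between 1.56 and 1.65 in Control (median 1.60) and between 1.44 and 1.68 in 5-ASA (median 1.58). Its SD over all 16 mice was 0.09, and 97.1% of the genes tested had a larger one. All 6 Control mice fell within the range of the 4 Sham mice. The group means were 1.54 ± 0.15 (SD, n = 4), 1.60 ± 0.03 (n = 6) and 1.57 ± 0.09 (n = 6).

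The junction-crossing probe of Msh3, A_51_P454166, gave another picture. It was at -3.65, -3.54, -3.84 and -3.63 in Sham 1 to 4, between -3.87 and -2.95 in Control (median -3.69) and between -4.43 and -3.36 in 5-ASA (median -4.01). In 5 of 6 5-ASA mice it lay below every Sham and Control mouse, and in 5-ASA 1 it lay above all 4 Sham mice. Its difference of 5-ASA minus Control was -0.42 (SE 0.18), with an exact two-sided permutation p of 0.0671 and a limma p of 0.996 after Benjamini-Hochberg adjustment over all kept probes. The third probe, A_55_P1960587, differed by 0.03 (SE 0.11) in the same comparison and the representing probe by -0.03. Over the 16 mice the 3 Msh3 probes correlated with each other at Pearson r of 0.12, 0.05 and -0.16, given as a description. All 5-ASA arrays lay in the second row of the slides, where the 2 Control mice of that row, Control 3 and 6, had -3.87 and -2.95 for the junction-crossing probe. The part of the row in this difference was not tested.

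Pms2, the MutL subunit of the main repair complex, was at -0.96, -0.82, -0.81 and -0.74 in Sham 1 to 4. Control mice ran from -1.01 over a median of -0.86 to -0.43, and 5-ASA mice from -0.97 over a median of -0.72 to -0.55. Control 3 and 4 and 5-ASA 1, 2 and 6 were the 5 highest mice, and the other 7 DSS mice lay between -1.01 and -0.83. The means were -0.83 ± 0.09 (SD, n = 4), -0.77 ± 0.24 (n = 6) and -0.74 ± 0.19 (n = 6). The second Pms2 probe, A_55_P2156823, followed the first over the mice (Pearson r = 0.78, n = 16) and was highest in Control 3 (-2.79) and 5-ASA 1 (-2.82). Control 4, the highest mouse on the first probe, was at -3.10 on the second.

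Mlh3, the alternative MutL subunit, was at -2.45, -2.53, -2.34 and -2.51 in Sham 1 to 4. Control ran from -2.75 over a median of -2.61 to -2.25, and 5-ASA from -2.70 over a median of -2.59 to -2.36. Of the Control mice, 4 lay below all Sham mice and 1 lay above them. The means were -2.46 ± 0.09 (SD, n = 4), -2.55 ± 0.20 (n = 6) and -2.54 ± 0.14 (n = 6).

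Ogg1, the 8-oxoguanine glycosylase, was at -0.23, -0.12, -0.07 and 0.11 in Sham 1 to 4. Control mice ran from -0.32 over a median of -0.15 to 0.22, and 5-ASA mice from -0.32 over a median of -0.20 to 0.20. The means were -0.08 ± 0.14 (SD, n = 4), -0.11 ± 0.22 (n = 6) and -0.14 ± 0.20 (n = 6), and the lowest and highest mice of Control and of 5-ASA enclosed all 4 Sham mice. The Ogg1 probe lies in spot row 381 of 384. Probes of the last 8 spot rows had median differences of -0.10, -0.04 and -0.15 for Control minus Sham, 5-ASA minus Control and 5-ASA minus Sham, against -0.0035, -0.004 and -0.0081 for all other rows. The part of this position in the values of Ogg1 was not tested.

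Mutyh, the adenine glycosylase, was at -1.60, -1.15, -1.13 and -1.09 in Sham 1 to 4. Control ran from -1.51 over a median of -1.23 to -0.59. In 5-ASA mice it was -0.87, -0.90, -1.34, -1.49, -5.50 and -0.93 in mice 1 to 6. The value of 5-ASA 5 is the only one of the 16 that was not well above background, and the other 5 mice of the group lay within the Control range. On the second probe, A_66_P106275, 5-ASA 5 was at -2.81, between the lowest (-3.30) and the highest (-2.65) of its group. The means of the representing probe were -1.24 ± 0.24 (SD, n = 4), -1.15 ± 0.33 (n = 6) and -1.84 ± 1.81 (n = 6).

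**Figure D1:**
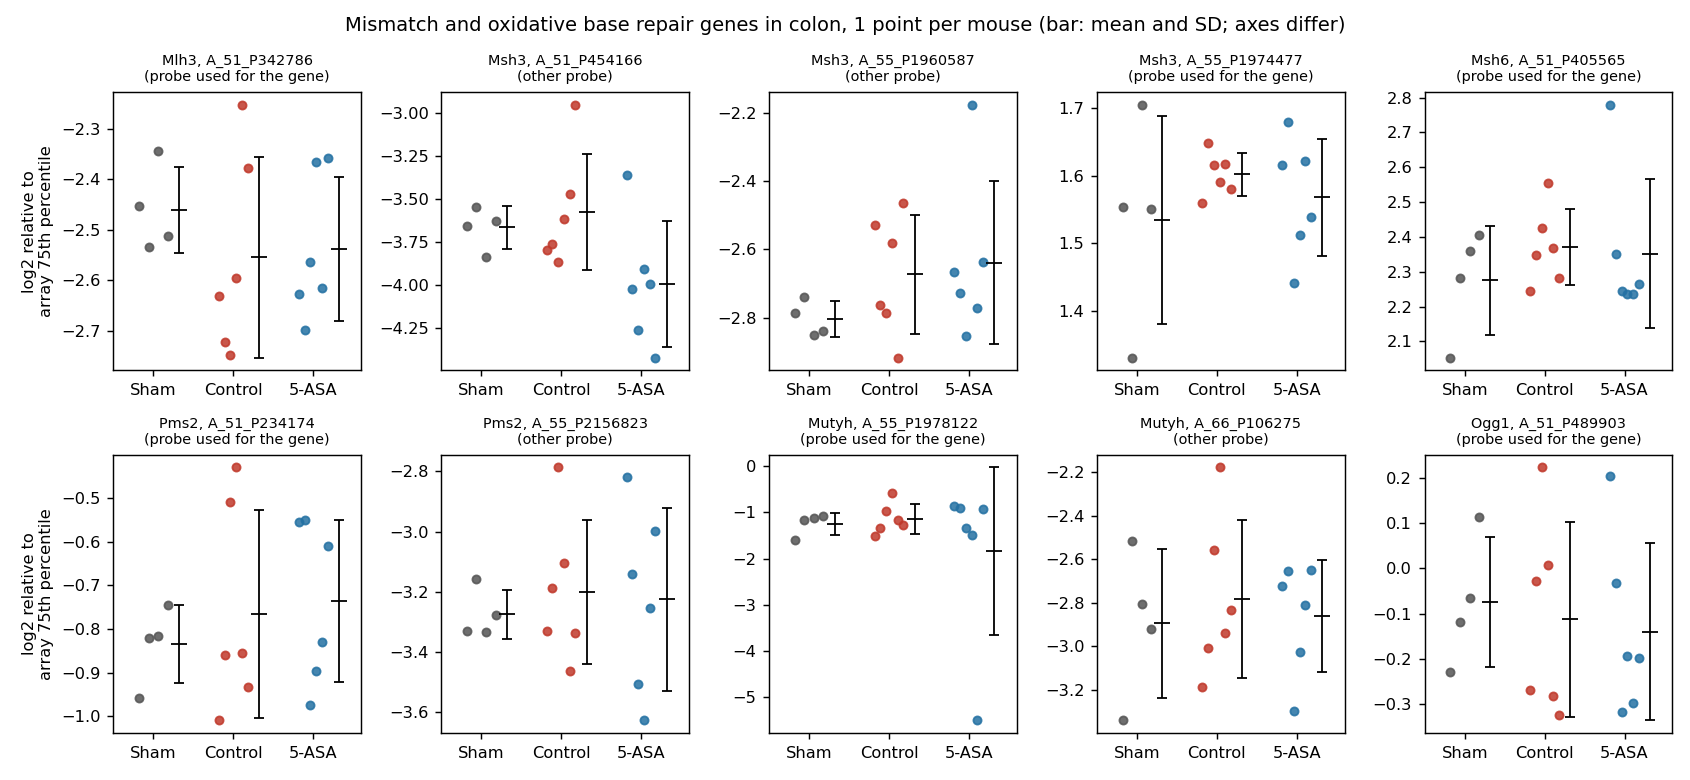
Values of all 10 probes (log2, array 75th percentile at 0), 1 point per mouse, by group (4 Sham, 6 Control, 6 5-ASA), with the mean and SD as bars and a separate axis for each probe. The groups overlap in every panel, 5-ASA 5 sits at -5.50 on 1 of the 2 Mutyh probes, and 5 of 6 5-ASA mice lie below all other mice on the Msh3 probe A_51_P454166.

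Between Control and Sham, which sets DSS followed by saline against water alone, none of the 6 genes passed the test. By limma, 0 of 6 passed an adjusted p of 0.05, where 0.057% of all genes did (14 of 24543, and 0 without the outer 12 spot rows of the arrays). At an unadjusted p under 0.05, 0 of 6 were higher and 0 of 6 lower, where 5.35% of all genes were higher and 3.52% lower. The groups were free of overlap for 0 of 6, against 3.32% of all genes. The differences were -0.09 (SE 0.11) for Mlh3, 0.07 (SE 0.07) for Msh3, 0.10 (SE 0.11) for Msh6, 0.07 (SE 0.13) for Pms2, 0.09 (SE 0.69) for Mutyh and -0.04 (SE 0.13) for Ogg1, with limma adjusted p from 0.799 to 0.981. Their median was 0.07, beside -0.00174 over all genes. The SE of Mutyh is that of the fit of all 3 groups, which includes 5-ASA 5. With only Control and Sham in the fit, the Mutyh difference was again 0.09, with an SE of 0.18. Without 5-ASA 5 in the fit of 3 groups the SE was also 0.18.

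Between 5-ASA and Control, which sets 5-ASA after DSS against saline after DSS, none of the 6 genes passed the test either. All 5-ASA arrays lay in row 2, but of the Control arrays only Control 3 and 6, so group and row coincide in part. With the array row as a covariate, 0 of 6 passed the adjusted limma test as well. By limma, 0 of 6 had an adjusted p under 0.05, and so did 0.0% of all genes. At an unadjusted p under 0.05, 0 of 6 were higher or lower, where 1.36% of all genes were higher and 2.72% lower, and 0 of 6 had groups free of overlap, against 0.134%. As ratios of 5-ASA to Control, with 95% intervals, Msh3 was at 0.977 (0.885 to 1.08), Msh6 at 0.987 (0.852 to 1.14), Mlh3 at 1.01 (0.879 to 1.16), Pms2 at 1.02 (0.865 to 1.21) and Ogg1 at 0.981 (0.83 to 1.16). For these 5 genes the intervals of the representing probes reach no further than 0.83 and 1.21. The junction-crossing Msh3 probe was at 0.748 (0.577 to 0.969) in the same comparison, with an unadjusted limma p of 0.0306 that did not hold after adjustment (0.996). Mutyh was at 0.619 with an interval from 0.248 to 1.54, a log2 difference of -0.69 (SE 0.62). Without 5-ASA 5 the Mutyh difference was 0.04, and on the second Mutyh probe, with all mice, -0.08 (SE 0.18). The limma adjusted p was 0.999 for each of the 6 genes.

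Between 5-ASA and Sham, 0 of 6 passed an adjusted p of 0.05 by limma (0.057% of all genes), 0 of 6 an unadjusted p under 0.05 in either direction (5.82% of all genes higher, 5.13% lower), and 0 of 6 had groups free of overlap (1.8% of all genes). The differences were -0.08 (SE 0.11) for Mlh3, 0.03 (SE 0.07) for Msh3, 0.08 (SE 0.11) for Msh6, 0.10 (SE 0.13) for Pms2, -0.60 (SE 0.69) for Mutyh and -0.06 (SE 0.13) for Ogg1. Adjusted p by limma ran from 0.842 to 0.946. Without 5-ASA 5, Mutyh differed by 0.13. This comparison and the one of Control with Sham share the 4 Sham mice. Sham and 5-ASA share no array row, so between them group and row cannot be told apart. A p that misses the threshold does not show that the groups were alike, and the intervals give the sizes the data allow.

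**Figure D2:**
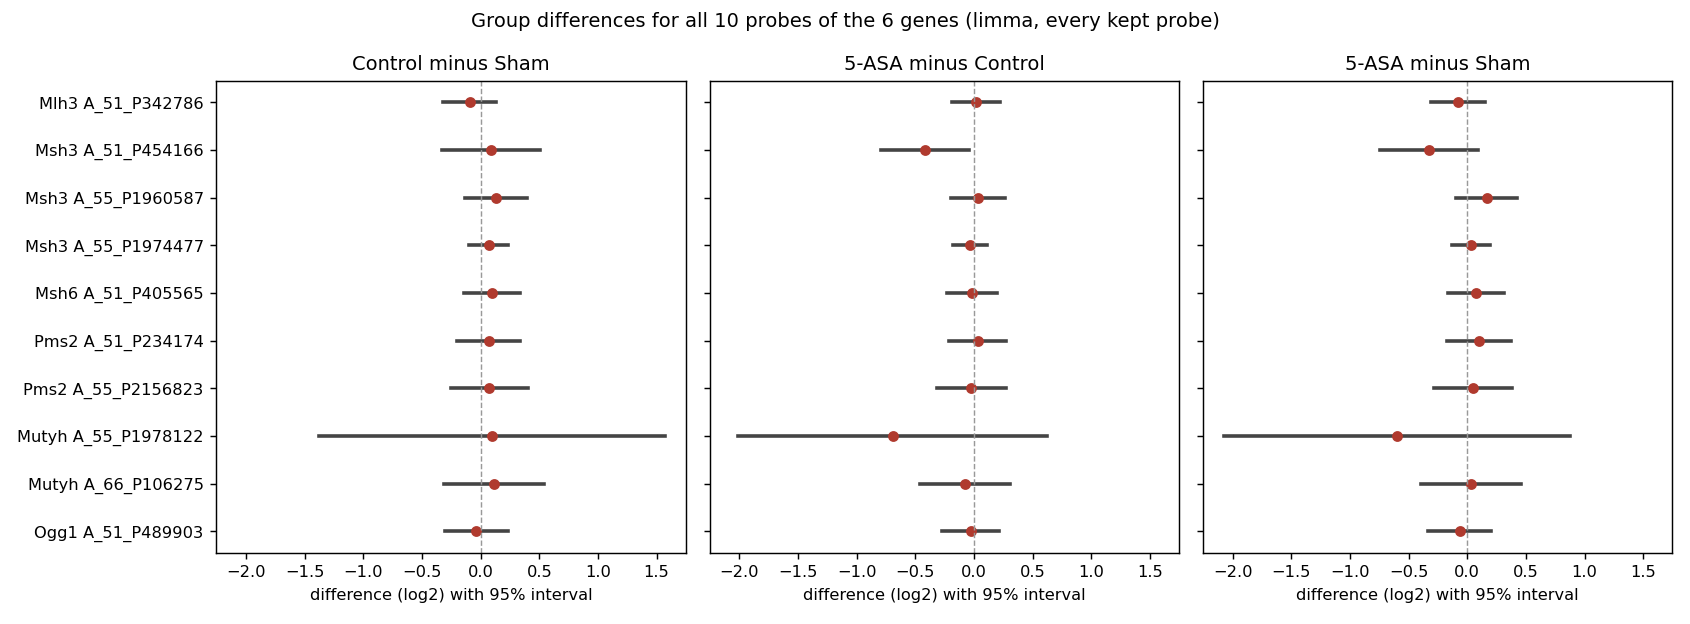
Difference between groups in log2 with its 95% interval (limma, every kept probe) for the 10 probes in the 3 comparisons. The intervals cross 0 except for Msh3 A_51_P454166 in 5-ASA minus Control (-0.42, interval -0.79 to -0.04), and the interval of Mutyh A_55_P1978122 is the widest.

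The genes that work with these 6 were described from 2 lists. Of 17 genes that act after mismatch recognition or are kin to it (clamp, clamp loader, exonuclease, single-strand binding proteins, polymerase delta, ligase), all 17 were measured. Compared with Sham, 16 of 17 had a higher mean in Control and 4 of them an unadjusted p under 0.05 (5.35% of all genes), with a median difference of 0.25, and 0 of 17 passed the adjusted test. In 5-ASA against Sham 16 of 17 had a higher mean, 8 at an unadjusted p under 0.05 (5.82% of all genes), with a median of 0.33. Again 0 of 17 passed the adjusted test, and group and array row cannot be told apart in that comparison. Between 5-ASA and Control 13 of 17 had a higher mean, 0 of 17 at an unadjusted p under 0.05, with a median of 0.07. The median over the 6 repair genes themselves was 0.07, -0.02 and -0.02 in Control minus Sham, 5-ASA minus Sham and 5-ASA minus Control.

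Exo1, the exonuclease that removes the stretch holding the mismatch, had the largest of these differences. It was at -0.95, -0.85, -1.20 and -1.21 in Sham 1 to 4, between -0.42 and 0.81 in Control and between -1.01 and 1.12 in 5-ASA. All 6 Control mice lay above all 4 Sham mice, and 5 of 6 5-ASA mice did. The difference was 1.15 (SE 0.35) for Control minus Sham and 1.07 (SE 0.35) for 5-ASA minus Sham, with limma adjusted p of 0.561 and 0.339. Pold2, a subunit of DNA polymerase delta, was between -0.14 and -0.06 in Sham, 0.13 and 0.53 in Control and -0.02 and 0.97 in 5-ASA, so that every DSS mouse lay above every Sham mouse. It differed by 0.40 (SE 0.16, limma adjusted p 0.561) and 0.58 (SE 0.16, adjusted p 0.339). Groups were free of overlap for 3.32% of all genes in Control minus Sham and for 1.8% in 5-ASA minus Sham. Exo1 and Pold2 are among the 3 genes of the list with the smallest p in these comparisons. Rfc5, a subunit of the clamp loader, differed by 0.58 and 0.69 (SE 0.25 in both, adjusted p 0.561 and 0.344). The clamp Pcna was between 3.79 and 3.94 in Sham, 3.87 and 4.47 in Control and 3.62 and 4.99 in 5-ASA.

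The 3 genes of this list with the smallest p in 5-ASA minus Control were Rfc2 (0.18, SE 0.10), Pold2 (0.18, SE 0.15) and Pold3 (0.12, SE 0.13), each with a limma adjusted p of 0.999.

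Of 20 further genes of base excision repair (other glycosylases, the endonucleases, polymerase beta, ligase, scaffold and break sensors), all 20 were measured. Higher means were found in 12 of 20 in Control against Sham (2 at an unadjusted p under 0.05, median 0.03), 14 of 20 in 5-ASA against Sham (3, median 0.07) and 12 of 20 in 5-ASA against Control (0, median 0.02), with 0 of 20 past the adjusted test in each. At that unadjusted p, 5.35%, 5.82% and 1.36% of all genes were higher in the same comparisons. The 2 with the largest differences were the flap endonuclease Fen1, which also works in replication, and Neil3, a glycosylase for oxidised bases. Fen1 was between 1.44 and 2.04 in Sham, 2.20 and 3.25 in Control and 1.61 and 3.71 in 5-ASA, and differed by 0.86 (SE 0.33, limma adjusted p 0.561) and 0.87 (SE 0.33, adjusted p 0.371) from Sham. Neil3 was between -2.26 and -1.53 in Sham, -1.53 and -0.35 in Control and -1.66 and 0.13 in 5-ASA, and differed by 0.71 and 1.06 (SE 0.35 in both, adjusted p 0.565 and 0.339). Tdg, a thymine glycosylase, differed by 0.37 (SE 0.14, adjusted p 0.561) in Control minus Sham.

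Nudt1, which clears 8-oxo-dGTP from the nucleotide pool and so acts before Ogg1 and Mutyh, was between 1.46 and 1.57 in Sham, 1.55 and 1.75 in Control and 1.54 and 1.98 in 5-ASA. It differed by 0.25 (SE 0.09, limma adjusted p 0.339) in 5-ASA minus Sham and by 0.15 (SE 0.08, adjusted p 0.999) in 5-ASA minus Control. Parp2, a sensor of strand breaks, differed by 0.15 (SE 0.07) and the scaffold Xrcc1 by 0.09 (SE 0.08) in 5-ASA minus Control, both with an adjusted p of 0.999.

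Genes of proliferation, several of which work in the replication machinery, were set beside the partner genes. Of 28 proliferation genes, 28 had a higher mean in Control than in Sham (19 at an unadjusted p under 0.05, median 0.75) and 28 in 5-ASA than in Sham (23, median 0.91), while 21 did in 5-ASA against Control (0, median 0.19), and 0 of 28 passed the adjusted test in each. The proliferation score of a mouse, its average log2 deviation from the 16-mouse mean over the 28 genes, ran from -0.998 to -0.358 in Sham, -0.25 to 0.55 in Control and -0.70 to 1.09 in 5-ASA. Of the markers of other cell types, 0 of 11 B cell and 0 of 11 smooth muscle genes passed the adjusted limma test in each comparison. At an unadjusted p under 0.05, 9 of 11 B cell genes were lower in 5-ASA than in Sham (5.13% of all genes), with 0 of 11 in both other comparisons and 0 of 11 smooth muscle genes in all 3. The median difference of 11 B cell genes was -0.998, -1.02 and -1.97, and that of 11 smooth muscle genes -0.37, 0.42 and 0.04, in Control minus Sham, 5-ASA minus Control and 5-ASA minus Sham. Their part in the differences of the partner genes was not tested. For the proliferation, B cell and smooth muscle genes too, group and array row cannot be told apart in 5-ASA minus Sham.

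**Figure D3:**
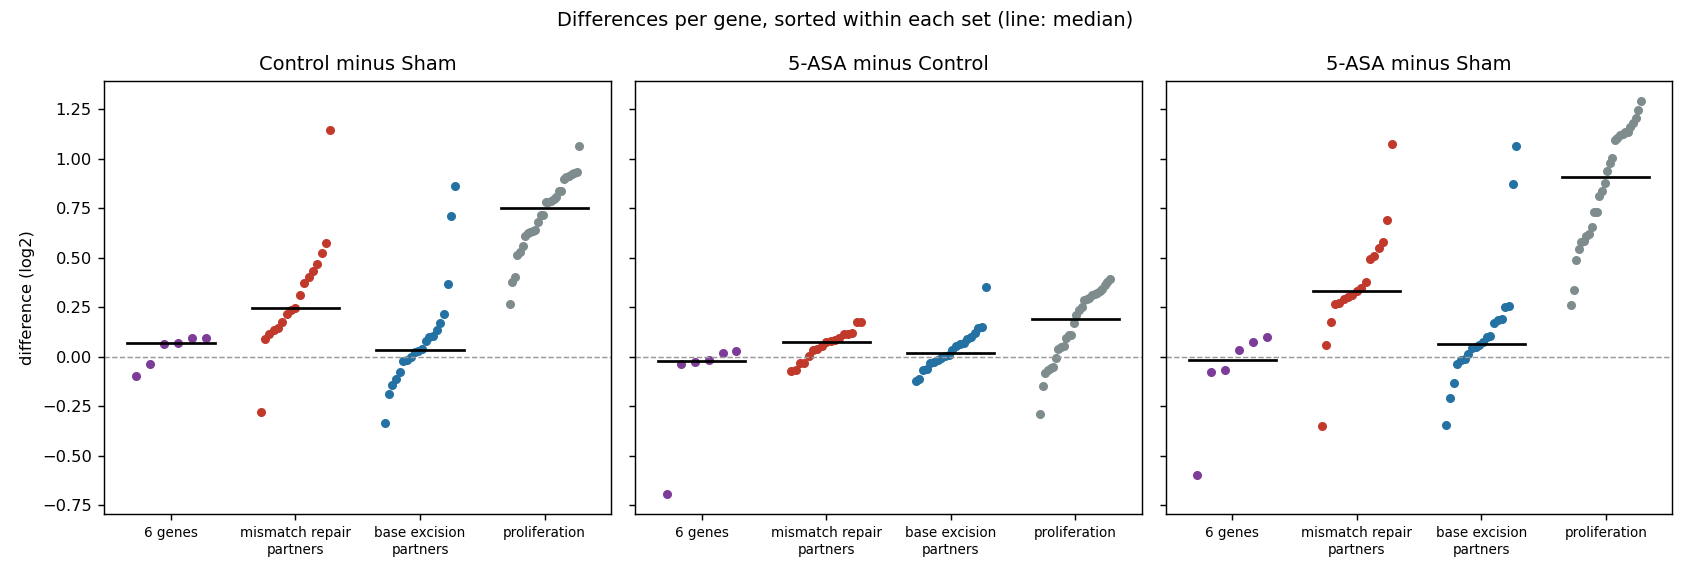
Difference between groups in log2 for each of the 6 genes, the 17 mismatch repair partners, the 20 base excision repair partners and the 28 proliferation genes, sorted within each set, with the median as a line, in the 3 comparisons. Against Sham the proliferation genes lie above 0 (28 of 28), the mismatch repair partners mostly so (16 of 17), and the 6 genes lie within 0.10 of 0 except Mutyh in the comparisons with 5-ASA.

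Between mice, the 6 genes differed in how they followed the proliferation score. Over the 16 mice Pms2 had a Pearson r of 0.73 (permutation p 0.00127, 0.0305 after adjustment over the 24 relations of 6 genes with 4 measures) and a Spearman rho of 0.57 (permutation p 0.0245, adjusted 0.112), so that the first passed the threshold and the second did not. Without the 2 mice farthest from the median score r was 0.78, and among the 12 DSS mice it was 0.84. It was 0.56 within row 1 of the slides and 0.85 within row 2 (8 mice each). The lowest r on leaving out 1 mouse was 0.70, without 5-ASA 2. With the group means removed from both measures r was 0.79 (permutation within groups, adjusted p 0.0109), and the second Pms2 probe gave r = 0.74. The 5 mice with the highest Pms2 were also the 5 with the highest scores, from 0.52 to 1.09.

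Msh6 had r = 0.62 (permutation p 0.00937, adjusted 0.112) and rho = 0.47 (adjusted 0.16), and r was 0.42 without 5-ASA 1, which had both the highest Msh6 and the highest score. Ogg1 had r = 0.44 (permutation p 0.0875, adjusted 0.415), with 0.13 in the first row and 0.71 in the second. With the group means removed it was 0.68 (permutation within groups, adjusted p 0.0266). Mlh3 ran the other way, with r = -0.54 (permutation p 0.0334, adjusted 0.267) and rho = -0.63 (permutation p 0.0114, adjusted 0.112). With arrays scaled to their median in place of the 75th percentile, r for Mlh3 was -0.26. Msh3 had r = 0.23 (permutation p 0.398), and its other probes -0.06 and -0.03. Mutyh had r = 0.19 (permutation p 0.526) with 5-ASA 5 and 0.67 without it, and 0.50 on its second probe.

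None of the relations of the 6 genes with the smooth muscle score, the B cell score or the diarrhea score at day 28 passed the adjusted threshold over the 24 relations. With the group means removed (permutation within groups), 3 of these 18 did: Pms2 with the B cell score (r = 0.59, adjusted p 0.0264), and Mutyh with the B cell score (r = 0.29, adjusted p 0.0109) and the smooth muscle score (r = -0.30, adjusted p 0.0264). Without 5-ASA 5, whose Mutyh value was not above background, these Mutyh r were 0.73 (permutation p 0.00466) and -0.60 (p 0.0331), and that with proliferation 0.73 (p 0.00332). Adjusted over these 3 the p were 0.00699, 0.0331 and 0.00699. Removing the group means and leaving out 5-ASA 5 were both added after seeing the data. The run without 5-ASA 5 covered Mutyh alone and not the diarrhea score, so its adjustment is narrower than that over 24 relations. With the group means kept, r for Pms2 was -0.38, 0.36 and 0.35 with smooth muscle, B cell and diarrhea (adjusted permutation p 0.415, 0.415 and 0.421). In the first row of arrays alone r of Pms2 with the smooth muscle score was -0.86 and in the second 0.13. Msh6 had -0.85 and -0.0025, Mutyh -0.93 and -0.37, and Ogg1 -0.48 and 0.11. With the diarrhea score these r were 0.93 and -0.18 (Msh6), 0.81 and 0.12 (Pms2), 0.87 and 0.44 (Mutyh), and 0.44 and 0.21 (Ogg1). With the B cell score they were 0.69 and -0.03, 0.76 and 0.14, 0.82 and 0.49, and 0.74 and 0.21. Mlh3 and Msh3 lay between -0.33 and 0.09 throughout. The differences between the rows were not tested.

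**Figure D4:**
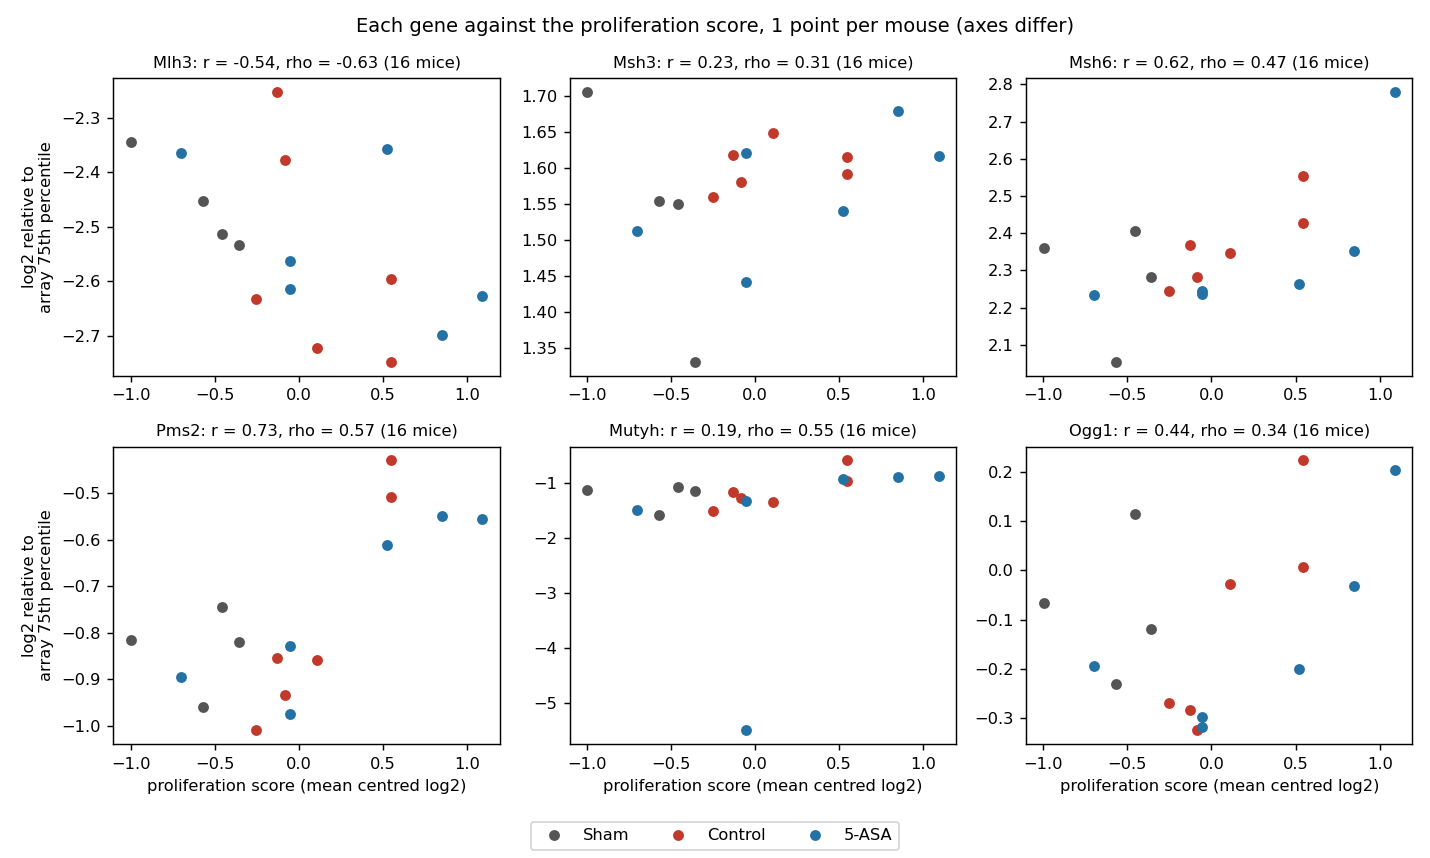
Each gene (log2, array 75th percentile at 0, vertical axis) against the proliferation score (horizontal axis), 1 point per mouse, coloured by group, with Pearson r and Spearman rho over 16 mice. Pms2 (r = 0.73) is high in the 5 mice with scores from 0.52 upwards, Mlh3 slopes downwards (r = -0.54), and 5-ASA 5 stands alone at the foot of the Mutyh panel.

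The stretches of 250 bases before the start of Msh6, Pms2 and Ogg1 are given because these 3 genes varied together over the mice. The sequences are those of RefSeq, build GRCm38.p6, in the direction of the gene, and 6 of 6 genes had an entry. They lie at chr17:87974800-87975049 (plus strand) for Msh6, chr5:143909751-143910000 (plus strand) for Pms2 and chr6:113326726-113326975 (plus strand) for Ogg1. Capitals mark matches, on either strand, to the CCAAT box (CCAAT), the GC box (GGGCGG) and 3 forms of the E2F site (TTTGGCGC, TTTCGCGC and TTTCCCGC).
Msh6: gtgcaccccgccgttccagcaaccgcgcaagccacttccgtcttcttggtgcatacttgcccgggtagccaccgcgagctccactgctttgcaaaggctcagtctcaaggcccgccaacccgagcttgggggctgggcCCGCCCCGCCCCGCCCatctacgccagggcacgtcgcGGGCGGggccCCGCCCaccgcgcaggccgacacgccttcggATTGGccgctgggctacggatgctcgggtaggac
Pms2: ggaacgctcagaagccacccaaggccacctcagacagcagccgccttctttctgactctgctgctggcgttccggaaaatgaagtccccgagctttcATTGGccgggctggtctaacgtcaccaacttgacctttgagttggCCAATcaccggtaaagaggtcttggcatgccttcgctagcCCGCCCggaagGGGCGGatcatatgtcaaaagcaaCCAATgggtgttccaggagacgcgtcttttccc
Ogg1: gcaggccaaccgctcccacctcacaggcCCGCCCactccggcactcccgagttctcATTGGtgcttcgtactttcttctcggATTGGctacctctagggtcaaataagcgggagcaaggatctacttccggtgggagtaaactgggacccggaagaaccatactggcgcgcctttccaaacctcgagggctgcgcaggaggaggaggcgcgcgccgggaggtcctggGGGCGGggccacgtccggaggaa

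A GC box occurs in 32.7% of the 32851 promoters in the table at this length, a CCAAT box in 33.8% and an E2F match in 1.53%. Msh6 has 5 GC boxes, 3 of them in 1 overlapping run, and 1 CCAAT box, Pms2 has 2 GC boxes and 3 CCAAT boxes, and Ogg1 has 2 of each, with 0 E2F matches in these 3. Of the stretches not shown, both of Mlh3 have 1 CCAAT box and 0 GC boxes, and those of Mutyh 1 CCAAT box each, with 2 GC boxes in the first and 0 in the second, and again 0 E2F matches. A match of letters is a description of the stretch and does not show that a factor binds it.

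Pms2 and Aimp2, which encodes a scaffold of the tRNA synthetase complex, lie on opposite strands with 161 bases between their starts. Mutyh and Toe1, a deadenylase gene, do so with 174 bases from the first Mutyh start and 6759 from the second. Aimp2 was between 3.23 and 3.54 in Sham, 3.44 and 3.86 in Control and 3.39 and 4.04 in 5-ASA, and followed Pms2 over the mice with r = 0.64. Aimp2 also had r = 0.68 with the proliferation score, beside 0.73 for Pms2. Its change exceeded that of Pms2 by 0.15 in Control minus Sham (exact permutation p 0.124, adjusted 0.929 over 15 such comparisons). Toe1 had r = 0.004 with Mutyh over the 16 mice, 0.54 without 5-ASA 5, and 0.86 with the proliferation score. The neighbours whose starts lie 9835 or more bases away gave Pearson r of -0.34 for Acyp1 with Mlh3, -0.68 for Camk1 with Ogg1 and -0.09 for Fbxo11 with Msh6. Whether any of these pairs shares a promoter was not tested.

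**Figure D5:**
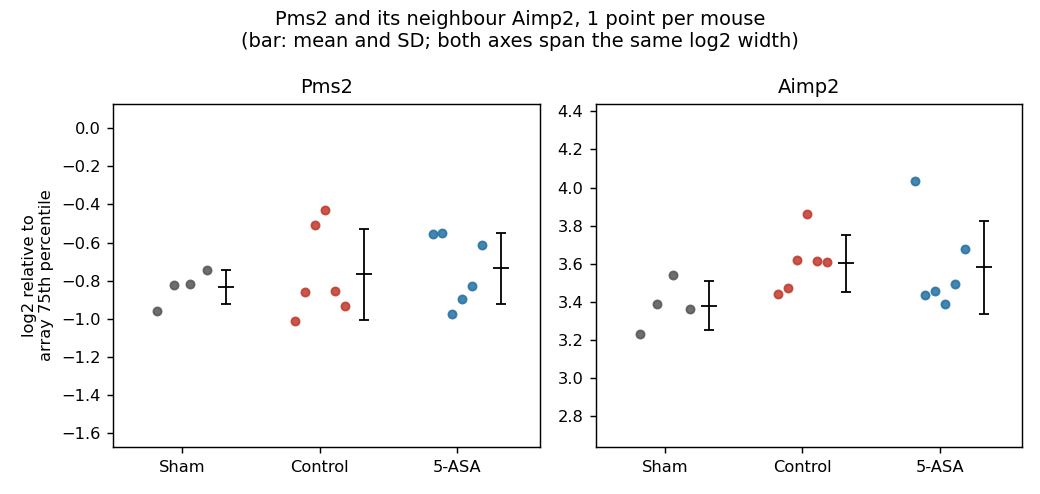
Pms2 (left) and its neighbour Aimp2 (right), log2 with the array 75th percentile at 0, 1 point per mouse by group (4 Sham, 6 Control, 6 5-ASA), with mean and SD as bars and both axes spanning the same log2 width. Pms2 runs from -1.01 to -0.43 and Aimp2 from 3.23 to 4.04, and the groups overlap in both.

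As a description of likeness, Msh6, Pms2 and Ogg1 correlated with each other over the 16 mice (Pearson r = 0.69 for Msh6 and Pms2, 0.73 for Msh6 and Ogg1, 0.74 for Pms2 and Ogg1), while Mlh3 had r of -0.29, -0.36 and -0.50 with these 3. Msh3 had r of 0.31, 0.31 and 0.28 with them. Of 24473 genes measured on all arrays, those most like Msh6 were Dhodh (r = 0.94), Rpgrip1 (0.94) and Ngdn (0.93), and those most like Pms2 were Lbr (0.91), Haus1 (0.91) and Nudt21 (0.91). For Ogg1 they included Vps16 (0.86) and Fancl (0.84), for Mlh3 Gm8801 (0.86) and Jmjd8 (0.85), for Msh3 Myo1d (0.82) and Trappc6a (0.80), and for Mutyh, whose pattern is set by 5-ASA 5, Basp1 (0.93) and Cd101 (0.80). Of the 3 places for each gene, those held by an interval without a gene name, 1 each for Mlh3, Msh3, Mutyh and Ogg1, are not named. The genes were picked as the highest of many, so their r is given without a test.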

How the data were processed

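Cy3-labelled cRNA from 16 mouse colons was hybridised to 1-colour Agilent arrays, per the labels. Per the file headers, Feature Extraction 10.10.1.1 subtracted the background and detrended each array to give the deposited processed intensity, and no step between arrays was applied. Spot mean and surrounding median intensity are raw pixel values, and signal above background, saturation (0 spots) and outliers are 0 or 1 flags, per the file headers. The deposited value table, whose scale the authors do not state, appears to hold log2 values: it followed the scaled scanner values after centring each probe on its Sham median (r from 0.992 to 0.998). Scale, centring and direction of that table are thus inferred. Its column medians were -0.000851, -0.0461, 0.0709 and -0.00654 (Sham 1 to 4), -0.0323, -0.0616, 0.206, -0.188, -0.0434 and 0.147 (Control 1 to 6), 0.223, 0.177, 0.135, 0.136, 0.113 and 0.111 (5-ASA 1 to 6). It was used as an alternative alone.

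Processed intensity was put on the log2 scale, and the 75th percentile of its array was subtracted over non-control probes, with outlying spots left out. Of 55681 probes, 27650 were named by accession through the RefSeq gene table (GRCm38.p6), 28031 kept their own and 1710 symbols changed. That table served names and neighbours only. A probe had to be well above background on 4 arrays or more, with the brightest on average standing for its gene. Groups were compared in 1 limma 3.58.1 model of 3 groups (R 4.3.3) with Benjamini-Hochberg adjustment over 24543 genes, called at 0.05, after a check on simulated data. Permutation tests were exact for single values and used 100000 draws for correlations over mice.

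The 6 genes, the partner lists, the marker lists and the tests were chosen with earlier results of these data known. Named beside the 6 genes were, per comparison, the 3 genes of each partner list with the smallest p, Exo1, Pcna and Nudt1, the chromosomal neighbours (1 of them and 1 promoter stretch are not reported here), and the 3 genes most like each. Further marker lists had median differences in Control minus Sham, 5-ASA minus Control and 5-ASA minus Sham of -0.32, 0.23 and -0.02 (fibroblast), -0.43, -0.19 and -0.62 (T cell), 0.47, -0.75 and 0.13 (neutrophil, 9 of 11 measured), 0.02, -0.13 and -0.08 (macrophage, 8 of 9) and -0.07, 0.01 and 0.13 (squamous epithelium, 5 of 7), with 0 genes called. Alternatives covered background correction, scaling, the value table, the filter, the probe rule, slide, array row, outer spot rows, replicate number, the groups in the fit and each mouse left out. Other scalings and removed group means for the relations between mice, and 1 mouse left out of those of Mutyh, were added after seeing the data.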

Additional observations from a re-analysis of the deposited data

Results flagged for a closer look

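In 30 sets of values (10 probes in 3 groups), 4 mice stood farther from the rest of their group than Dixon's 95% limit, where chance gives about 1 set in 20. On the Mutyh probe A_55_P1978122, 5-ASA 5 was at -5.50 with the next mouse of its group at -1.49, and Sham 1 was at -1.60 with the next at -1.15. Msh6 was at 2.78 in 5-ASA 1, with the next mouse at 2.35. The Msh3 probe A_55_P1960587 was at -2.18 in 5-ASA 4, with the next at -2.64. The Mutyh value of 5-ASA 5 was not well above background, and the other Mutyh probe was at -2.81 in that mouse, within the range of its group. The cause of these 4 values was not tested.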

How the results depend on the processing

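In each of the 3 comparisons 0 of the 6 genes passed limma's adjusted p of 0.05 under every alternative run, and over all these 567 values the adjusted p ran from 0.525 to 1.0. Most differences are near 0, and 42 of 567 changed sign; the cause was not tested. Within slide 1 alone, Ogg1 was 0.15 for Control minus Sham and 0.13 for 5-ASA minus Sham, Mutyh was 0.24 for 5-ASA minus Control and 0.34 for 5-ASA minus Sham, and Msh6 was 0.12 for 5-ASA minus Control. Within slide 2 alone, Mlh3 was 0.0197 and Msh3 -0.0313 for Control minus Sham, Mlh3 was -0.0376 and Pms2 -0.0392 for 5-ASA minus Control, and Msh3 was -0.0701 and Msh6 -0.14 for 5-ASA minus Sham. Pms2 in 5-ASA minus Control was -0.0146 with the array row as a covariate and within the second row. Mlh3 in 5-ASA minus Control was -0.0071 with quantile scaling. In 5-ASA minus Sham, Msh3 was -0.044 as the mean of its probes, and Mutyh was 0.0352 on the probe well above background on all 16 arrays.

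Same-numbered mice of different groups deviated together with r from -0.213 to 0.607, the highest for Sham 1 and Control 1. Mice with different numbers were not set beside them, so whether the replicate numbers in the titles pair the mice was not tested. With the replicate number as a block, 0 of 6 genes passed in each comparison, and Ogg1 was 0.0379 for Control minus Sham and 0.0107 for 5-ASA minus Sham.

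Leaving out 1 mouse at a time, Control minus Sham ran from -0.001 to 0.12 for Msh3, -0.024 to 0.17 for Mutyh and -0.10 to 0.0259 for Ogg1. 5-ASA minus Control ran from -0.022 to 0.0774 for Mlh3, -0.10 to 0.0181 for Msh6, -0.0187 to 0.0973 for Pms2, -0.89 to 0.0401 for Mutyh (the highest without 5-ASA 5) and -0.0958 to 0.0399 for Ogg1. 5-ASA minus Sham ran from -0.0349 to 0.09 for Msh3, -0.0085 to 0.12 for Msh6 and -0.79 to 0.13 for Mutyh.

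Over all genes, 5-ASA minus Control had 0 calls, and 2952 of 34947 with no filter on dim probes, where 0 of the 6 genes were among them. It had 7 with the array row as a covariate and 1 within slide 2 alone. The lowest processed intensity of an array was 3.398 to 4.769 in row 1 and 6.804 to 9.397 in row 2. The part of this difference between rows in the 2952 calls was not tested. Control minus Sham had 14 calls and 5-ASA minus Sham 14, with 0 to 19 and 0 to 26 over the alternatives. The 0 in both came without the outer 12 spot rows (23245 genes tested), the 19 with every kept probe tested and the 26 without 5-ASA 4. With probes well above background on all 16 arrays there were 1 and 3. Ogg1 has no value without the outer 12 spot rows, and 5-ASA minus Sham none within 1 array row. Of the settings run, the relation of Ogg1 with proliferation passed only with the group means removed. The median SE of 0.144 to 0.162 over all genes limits what these mice can show.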
